A study of Mus musculus with 6 samples.

Results

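The Tex genes are mouse genes named "testis expressed" because their messenger RNA was found in the testis. The members were the rows of the deposited gene table whose symbol is Tex followed by a number and optional lower-case letters or digits, apart from Tex11 and Tex12. There were 36 such genes of 53700 listed. The libraries came from primary spermatocytes, the germ cells in meiotic prophase, sorted by Hoechst dye and flow cytometry from testes of C57BL/6 mice aged 8 weeks. There were 3 wild type libraries (WT) and 3 libraries of circSry KO mice, which lack circSry, a circular RNA of the Sry locus. All 6 shared strain, age and cell type. The labels do not say how the allele was made or whether the libraries are from separate mice, and the p-values therefore describe only how these 6 libraries vary, which may be technical.

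The name Tex is a naming series and not a protein family. TEX14 holds open the cytoplasmic bridges that join germ cells of a clone, TEX15 acts in meiotic break repair and in piRNA-directed silencing of transposons, and TEX101 is a surface protein of germ cells needed for the maturation of the sperm protein ADAM3. Other members are made in spermatids, the cells that follow meiosis, and end up in the sperm tail or head, and a few are used in most tissues. A sorted spermatocyte sample can hold messages of all these kinds.

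Depth was 7400360 to 9294723 estimated read counts per library, and the Tex genes together took 0.228% to 0.254% of the counts in WT and 0.321% to 0.355% in circSry KO. Those ranges did not overlap. Of the 36 genes, 35 passed the filter on low counts; Tex28, on chromosome X, did not, with 4 to 6 counts in each WT library and 10, 19 and 0 counts in circSry KO replicates 1, 2 and 3. The last of these allows up to 0.383 CPM, counting error only. Levels below are in CPM, read counts scaled to library size with TMM factors, unless TPM (per transcript length) is named, and differences are log2 fold changes of circSry KO against WT with their standard errors from edgeR. Of the markers of the labelled cell type, all 10 pachytene genes were detected, among them Ldhc, the lactate dehydrogenase of spermatocytes and sperm, at a mean of 3596 CPM in WT, and Tex101, Tex14 and Tex15 were detected in all 6 libraries. Levels of that list were uneven in the knockout: Piwil1, a PIWI protein of pachytene piRNAs, stood at 1027 to 1437 CPM in WT and at 55.5, 74.6 and 832 CPM in circSry KO replicates 1, 2 and 3. Pgk2, of the same list, stood at 185 to 320 CPM in WT and at 810, 699 and 339 CPM in those replicates. circSry KO replicate 3 stood apart: its log2 CPM correlated across genes at 0.927 with WT replicate 1 and at 0.778 with circSry KO replicate 2. When genes were divided into 5 classes by length, its median log2 difference from the WT mean was 1.10 in the shortest class and -0.86 in the longest. Those medians were 0.57 and -0.44 in circSry KO replicate 1 and 0.04 and 0.05 in replicate 2. In WT replicates 1, 2 and 3 they were 0.27 and -0.34, -0.25 and 0.22, and -0.11 and 0.05.

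In WT, levels per transcript length differed widely between Tex genes. Tex101 was the highest, at 578, 801 and 523 TPM in WT replicates 1, 2 and 3. Tex22 followed at 636, 243 and 353 TPM and Tex33, a protein of sperm tail microtubules, at 384, 147 and 231 TPM. Tex30, Tex2 and Tex43 came next, with means of 225 ± 62.3, 175 ± 38.5 and 141 ± 43.4 TPM (SD, n = 3). At the other end were Tex28 at 0.833 ± 0.206 and Tex13c3 at 1.03 ± 0.909 TPM (SD, n = 3). Of the 35 pairs of neighbours in this order only 2 had WT ranges that did not overlap, Tex47 above Tex26 and Tex52 above Tex13c3. The exact order is therefore not resolved by 3 libraries; a gene was above its next neighbour in every WT library for 6 of the 35 pairs. Tex22, Tex33 and Tex43 were highest in WT replicate 1 and lowest in WT replicate 2, whereas Tex101 and Tex30 were highest in WT replicate 2.

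The comparison of circSry KO with WT asked whether these testis genes are at another level in spermatocytes that lack circSry. Most Tex genes stood higher in the knockout libraries: 28 of the 35 tested had a positive log2 fold change and 7 a negative one, with a median of 1.35. Over all 16829 genes tested, 55.3% were positive and the median was 0.12. None of the 35 passed an edgeR adjusted p of 0.05, as none of the 16829 did (0.0% in either direction). The smallest edgeR adjusted p of a Tex gene was 0.087, which was also the smallest of any gene. At an unadjusted p under 0.05 edgeR found 21 of the 35 higher and 0 lower, where the background was 13.6% higher and 9.84% lower. Every knockout library exceeded every WT library for 18 of the 35, against 14.1% of all genes, and every one was lower for 1, Tex9, against 14.3%. Taken singly, circSry KO replicates 1, 2 and 3 were above the WT range for 25, 25 and 24 of the 35, against 39.0%, 39.2% and 38.5% of all genes. For 5 of the 35 (Tex10, Tex13c1, Tex13c2, Tex21 and Tex44) replicates 1 and 2 were above it and replicate 3 was not, against 16.0%. DESeq2, after adjustment, called 16 higher and 0 lower, where it called 6.9% of all genes higher and 4.65% lower. Given every gene with a count instead of the filtered ones, it called 14 of 36 higher and 0 lower, where 3.02% and 2.19% of all genes were called. Without circSry KO replicate 3, edgeR called 21 higher and 2 lower, where 18.5% and 16.2% of all genes were called; leaving out the most deviant library makes those p-values too small. With no filter on low counts it called 11 of 36 higher and 0 lower, where 1.75% and 1.03% of all genes were called.

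**Figure D1:**
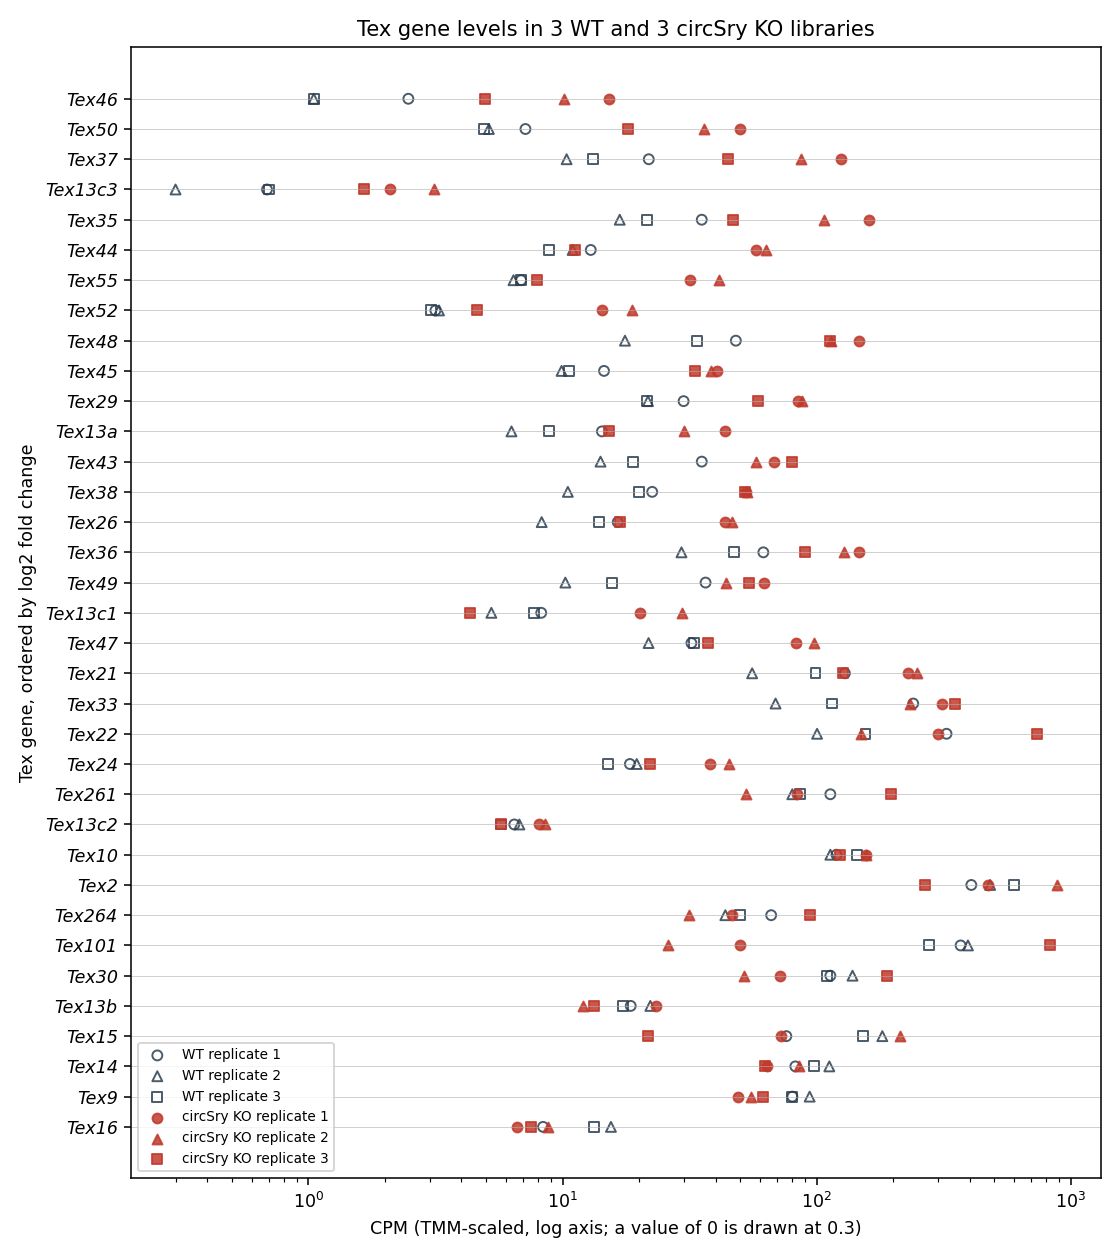
CPM (log axis) of the 35 tested Tex genes in each library, ordered by log2 fold change, with open symbols for WT and filled symbols for circSry KO replicates; 1 value of 0 is drawn at 0.3. In the upper rows the filled symbols lie to the right of the open ones, and in the row of Tex101 the knockout replicates stand at 50.1, 26.1 and 828 CPM on either side of WT.

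The largest differences belonged to Tex46, Tex50 and Tex37. Tex46 stood at 2.47, 1.05 and 1.05 CPM in WT replicates 1 to 3 and at 15.3, 10.2 and 4.97 CPM in circSry KO replicates 1 to 3. Its groups did not overlap, and its log2 fold change was 2.73 ± 0.59 (SE; edgeR adjusted p = 0.0877). It rested on few reads in WT, 9 to 18 counts per library. Tex50 stood at 7.15, 5.13 and 4.90 CPM in WT and at 50.1, 35.9 and 18.1 CPM in circSry KO, a log2 fold change of 2.60 ± 0.46 (SE; edgeR adjusted p = 0.087). Tex37, a protein of the inner wall of sperm tail microtubules, stood at 21.9, 10.4 and 13.2 CPM in WT and at 125, 86.6 and 44.9 CPM in circSry KO, a log2 fold change of 2.50 ± 0.48 (SE; edgeR adjusted p = 0.087). In all 3 genes the highest value was in circSry KO replicate 1 and the lowest knockout value, still above WT, in replicate 3. On the scale of group means they were 6.65, 6.06 and 5.64 times as high in the knockout. DESeq2 adjusted p was 0.000997 for Tex46, 2.55e-05 for Tex50 and 0.000106 for Tex37. With offsets that remove each library's trend on length, their log2 fold changes were 2.14, 2.17 and 1.99 (edgeR adjusted p = 0.161, 0.144 and 0.146).

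The RefSeq promoter windows of these 3 genes are shown because the genes moved in the same direction, and those of Tex14 and Tex101, bridge and surface genes that did not, are shown beside them. Each window runs from 250 bases before to 50 bases after the start site on GRCm38.p6, 5′ to 3′ on the gene's strand, at chr4:136610187-136610486 (plus strand, Tex46), chr1:161159265-161159564 (minus, Tex50), chr6:70918873-70919172 (minus, Tex37), chr11:87404815-87405114 (plus, Tex14) and chr7:24672001-24672300 (minus, Tex101). Capitals mark matches, on either strand, to any of 12 patterns searched. They were the cAMP response element bound by CREM in spermatids (TGACGTCA), its first 6 bases TGACGT with the shorter form TGACG, the X-box of RFX factors as a whole, its first 6 bases GTTGCC with the longer form GTTGCCA, 4 MYB type sites (AACNGTC, the form AACGGTC, the form CAGTTG, the form AACTGAC), the TATA box TATAAA and the E-box CACGTG. The longer patterns of the first pair of kinds contain the shorter ones, and the MYB type patterns overlap each other. The choice of these 5 genes was made with their values known.

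Tex46: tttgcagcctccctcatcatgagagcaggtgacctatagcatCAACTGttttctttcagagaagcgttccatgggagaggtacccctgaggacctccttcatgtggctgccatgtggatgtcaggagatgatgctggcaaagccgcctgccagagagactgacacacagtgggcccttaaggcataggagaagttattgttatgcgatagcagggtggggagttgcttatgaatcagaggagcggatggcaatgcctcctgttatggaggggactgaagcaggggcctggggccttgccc
Tex50: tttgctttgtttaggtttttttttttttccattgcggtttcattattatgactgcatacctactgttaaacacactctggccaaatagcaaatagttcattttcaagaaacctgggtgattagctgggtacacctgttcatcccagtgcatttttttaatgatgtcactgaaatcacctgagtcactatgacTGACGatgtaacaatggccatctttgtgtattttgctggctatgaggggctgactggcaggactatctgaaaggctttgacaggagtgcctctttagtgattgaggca
Tex37: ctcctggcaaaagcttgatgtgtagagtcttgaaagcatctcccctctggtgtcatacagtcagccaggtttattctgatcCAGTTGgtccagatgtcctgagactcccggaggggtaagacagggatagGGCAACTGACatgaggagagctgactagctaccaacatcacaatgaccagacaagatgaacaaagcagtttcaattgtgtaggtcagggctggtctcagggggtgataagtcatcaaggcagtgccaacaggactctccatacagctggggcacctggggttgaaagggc
Tex14: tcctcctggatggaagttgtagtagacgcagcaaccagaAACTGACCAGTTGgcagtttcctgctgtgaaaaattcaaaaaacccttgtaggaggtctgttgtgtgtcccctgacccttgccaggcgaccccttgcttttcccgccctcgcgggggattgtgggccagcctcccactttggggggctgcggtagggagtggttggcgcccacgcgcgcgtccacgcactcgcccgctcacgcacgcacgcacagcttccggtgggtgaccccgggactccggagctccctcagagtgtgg
Tex101: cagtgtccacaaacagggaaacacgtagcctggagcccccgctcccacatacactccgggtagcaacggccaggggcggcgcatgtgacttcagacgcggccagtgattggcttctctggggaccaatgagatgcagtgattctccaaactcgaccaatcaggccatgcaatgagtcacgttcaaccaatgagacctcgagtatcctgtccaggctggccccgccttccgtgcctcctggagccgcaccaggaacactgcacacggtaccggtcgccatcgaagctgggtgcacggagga

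Tex46 held 1 match, CAGTTG on the other strand 208 bases before the start. Tex50 held 1, TGACG 58 bases before it. Tex37 held 4: CAGTTG at 169 and 118 bases before the start, AACTGAC at 117 and GTTGCC at 120, the last 3 overlapping each other. Tex14, whose level was not higher in the knockout, held CAGTTG 204 bases and AACTGAC 211 bases before its start. The window printed for Tex101 held none of the 12. In GENCODE M21 the Tex101 gene spans chr7:24668007-24676675 on the minus strand, so that window lies inside the gene. RefSeq windows were at hand for 28 of the 36 Tex genes. TGACGTCA was in 0 of the 28, against 2.03% of 27025 genes, TGACGT in 2 (7.14% against 8.37%) and TGACG in 4 (14.3% against 23.0%). The whole X-box was in 0, against 0.355%, GTTGCC in 5 (17.9% against 14.1%) and GTTGCCA in 1 (3.57% against 5.02%). Of the MYB type sites, CAGTTG was in 7 (25.0% against 15.4%), AACNGTC in 5 (17.9% against 9.17%), AACTGAC in 3 (10.7% against 3.44%) and AACGGTC in 0, against 1.11%. TATAAA was in 2 (7.14% against 15.7%) and CACGTG in 2 (7.14% against 8.09%). These are descriptions of letters in a short window, given for every pattern searched.

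Genes of the sperm tail and head stood higher in the knockout libraries. The list held Tex22, Tex33, Tex37, Tex38, Tex43, Tex44, Tex46, Tex47, Tex49 and Tex55, and all 10 had positive log2 fold changes, from 1.03 to 2.73 with a median of 1.58. None passed the adjusted threshold. At an unadjusted p under 0.05, 9 of the 10 were higher, against 13.6% of all genes tested. Every knockout library exceeded every WT library for 7, against 14.1%. Tex33, Tex37, Tex43 and Tex49 encode proteins that line the inside of the sperm tail microtubules. Tex43 stood at 35.3, 14.1 and 18.9 CPM in WT and at 68.2, 57.8 and 80.0 CPM in circSry KO, a log2 fold change of 1.59 ± 0.41 (SE; edgeR adjusted p = 0.0951). Its highest value was in circSry KO replicate 3, unlike that of Tex37, and its groups did not overlap. After the length offsets its log2 fold change was 0.70 (edgeR adjusted p = 0.245). Tex49 stood at 36.6, 10.3 and 15.6 CPM in WT and at 62.0, 43.8 and 54.2 CPM in circSry KO. Its log2 fold change was 1.36 ± 0.49 (SE; edgeR adjusted p = 0.152), or 0.61 after the length offsets. Tex33, the most abundant of the 4, stood at 239.9, 68.9 and 115 CPM in WT and at 313, 232 and 351 CPM in circSry KO. WT replicate 1 was above circSry KO replicate 2, so its groups overlapped, and the log2 fold change was 1.08 ± 0.47 (SE; edgeR adjusted p = 0.21). After the length offsets that of Tex33 was 0.67 (edgeR adjusted p = 0.305).

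Tex38 encodes a membrane protein that works with the palmitoyltransferase ZDHHC19 in shaping the sperm head. It stood at 22.5, 10.5 and 20.0 CPM in WT and at 52.5, 53.1 and 52.0 CPM in circSry KO. The knockout libraries were nearly equal, and the log2 fold change was 1.57 ± 0.37 (SE; edgeR adjusted p = 0.0917). After the length offsets that of Tex38 was 0.99 (edgeR adjusted p = 0.181). Zdhhc19 stood at 30.9 ± 13.1 CPM in WT and at 81.2 ± 6.70 CPM in circSry KO (SD, n = 3 each), with a log2 difference of 1.39 ± 0.38 (SE; edgeR adjusted p = 0.0971). In a list of Zdhhc19, Arrdc5, Spaca1 and Spata46, all 4 were higher at an unadjusted p under 0.05, against 13.6% of all genes tested. The groups of all 4 did not overlap, against 14.1% with the knockout above, and the median log2 fold change was 1.30. Tex44, Tex55 and Tex47 had another profile over libraries. Tex44 stood at 12.9, 11.0 and 8.86 CPM in WT and at 57.7, 63.1 and 11.2 CPM in circSry KO. Replicate 3 of the knockout lay within the WT range, while replicates 1 and 2 were far above it, and the log2 fold change was 2.01 ± 0.60 (SE; edgeR adjusted p = 0.113). Tex55 stood at 6.87, 6.41 and 6.88 CPM in WT and at 31.7, 41.2 and 7.91 CPM in circSry KO. Tex47 stood at 32.2, 21.8 and 33.0 CPM in WT and at 83.3, 97.7 and 37.4 CPM in circSry KO. In both, replicate 3 exceeded the WT libraries by little, and the log2 fold changes were 2.00 ± 0.57 and 1.33 ± 0.42 (SE; edgeR adjusted p = 0.105 and 0.123). Without circSry KO replicate 3 they were 2.39 and 1.59, and that of Tex44 was 2.42 (edgeR adjusted p = 0.000438, 0.00251 and 0.000373). Tex22 went the other way over libraries, at 324, 100.4 and 156 CPM in WT and at 299, 149 and 737 CPM in circSry KO. Its log2 fold change of 1.03 ± 0.64 (SE; edgeR adjusted p = 0.356) was 0.16 without replicate 3 (edgeR adjusted p = 0.802). After the length offsets, with all 6 libraries, that of Tex22 was 0.35 (edgeR adjusted p = 0.66).

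**Figure D2:**
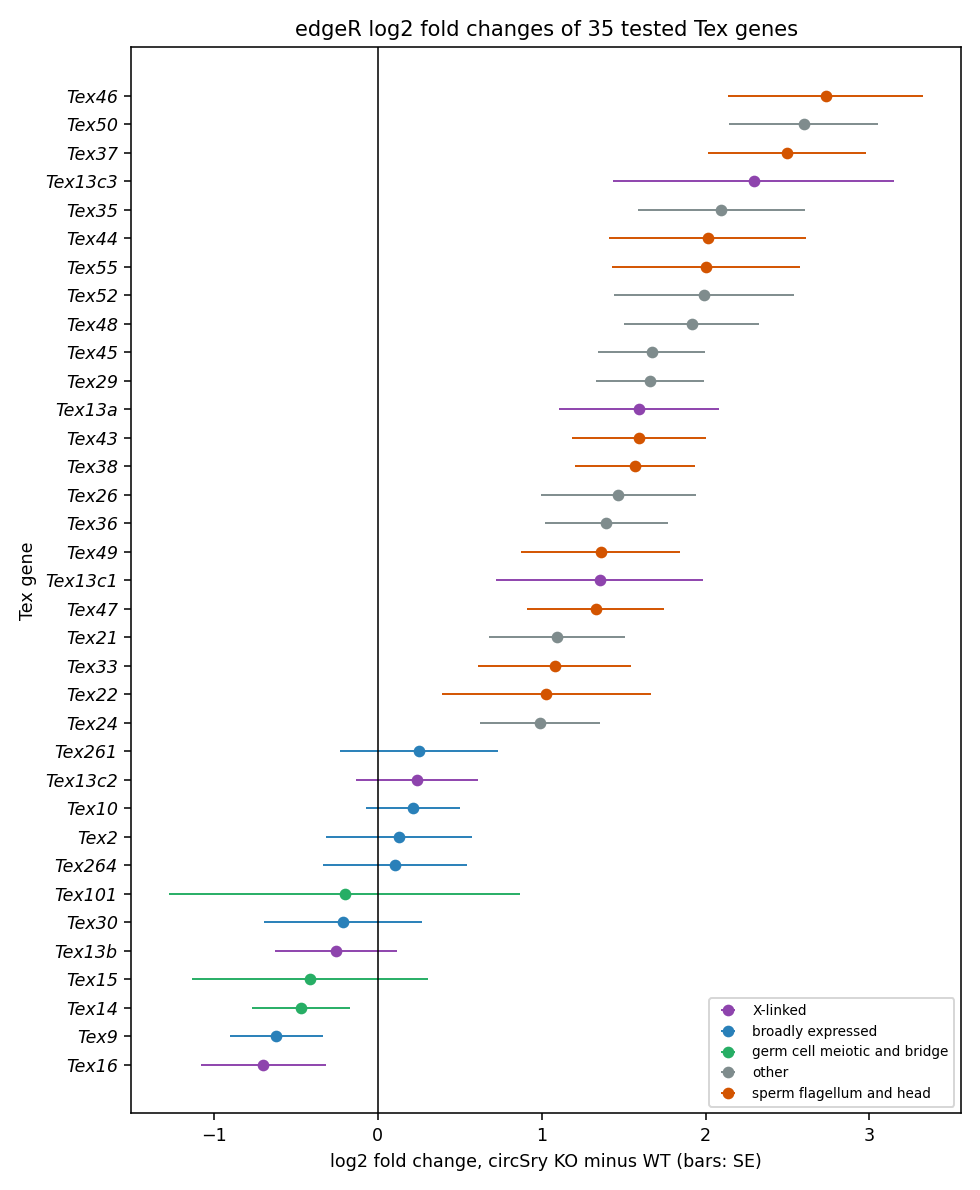
edgeR log2 fold change (circSry KO minus WT) of the 35 tested Tex genes with its standard error, coloured by role. Orange points of sperm tail and head genes lie between 1.03 and 2.73, blue points of broadly expressed genes lie near 0 between -0.62 and 0.25, and the 3 green bridge and meiotic genes lie below 0.

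The 10 genes to which no role was assigned (Tex21, Tex24, Tex26, Tex29, Tex35, Tex36, Tex45, Tex48, Tex50 and Tex52) all had positive log2 fold changes, from 0.99 to 2.60 with a median of 1.67. All 10 were higher at an unadjusted p under 0.05, against 13.6% of all genes tested. The groups of 9 did not overlap, the exception being Tex21, against 14.1% with the knockout above. Tex45 was the steadiest over libraries, at 14.6, 9.91 and 10.6 CPM in WT and at 40.4, 38.3 and 33.2 CPM in circSry KO. Tex29 stood at 30.0, 21.7 and 21.6 CPM in WT and at 84.5, 87.8 and 59.0 CPM in circSry KO. Their log2 fold changes were 1.67 ± 0.33 and 1.66 ± 0.33 (SE), each with an edgeR adjusted p of 0.087. Tex48 stood at 48.1, 17.6 and 33.7 CPM in WT and at 147, 114 and 113 CPM in circSry KO, a log2 fold change of 1.91 ± 0.41 (SE; edgeR adjusted p = 0.0877). The knockout libraries of Tex45 were close to each other, whereas Tex48 was higher in replicate 1 and Tex29 lower in replicate 3. After the length offsets the log2 fold changes of Tex45, Tex29 and Tex48 were 1.59, 1.03 and 1.25 (edgeR adjusted p = 0.144, 0.199 and 0.163). Tex35 was more spread, at 35.3, 16.8 and 21.6 CPM in WT and at 160.4, 107 and 46.9 CPM in circSry KO (log2 fold change 2.09 ± 0.51, SE; edgeR adjusted p = 0.0942). Tex36 stood at 61.7, 29.4 and 47.3 CPM in WT and at 146, 128 and 89.9 CPM in circSry KO (1.39 ± 0.38, SE; edgeR adjusted p = 0.097). In Tex26, Tex52 and Tex24 the third knockout library was close to WT. Tex26 stood at 16.5, 8.28 and 13.9 CPM in WT and at 43.7, 46.4 and 16.8 CPM in circSry KO. Tex52, whose exons overlap those of Foxm1 on the same strand, stood at 3.16, 3.27 and 3.03 CPM in WT and at 14.3, 18.8 and 4.59 CPM in circSry KO. Tex24 shares 32.7% of its 50-base words with transcripts of other genes, mostly Gm6853, so its values are uncertain. It stood at 18.4, 19.6 and 15.2 CPM in WT and at 37.9, 45.3 and 22.2 CPM in circSry KO. Tex21 stood at 129, 55.7 and 99.0 CPM in WT and at 229, 249 and 127 CPM in circSry KO, where replicate 3 lay below WT replicate 1. The log2 fold changes of Tex26, Tex52, Tex24 and Tex21 were 1.47 ± 0.47, 1.99 ± 0.55, 0.99 ± 0.37 and 1.09 ± 0.41 (SE; edgeR adjusted p = 0.126, 0.0988, 0.161 and 0.168).

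Chromosome X is silenced in pachytene spermatocytes, and 7 of the 36 Tex genes lie on it. Of the 6 tested, 4 had positive log2 fold changes, against 55.3% of all genes tested. At an unadjusted p under 0.05, 2 were higher, Tex13a and Tex13c3. Among the 29 autosomal Tex genes tested, 19 were, and among all genes tested 13.6% were. Tex13a stood at 14.3, 6.30 and 8.86 CPM in WT and at 43.5, 30.0 and 15.3 CPM in circSry KO, with no overlap and a log2 fold change of 1.59 ± 0.49 (SE; edgeR adjusted p = 0.118). Tex13c3 had 5, 0 and 6 counts in WT and 19, 27 and 13 counts in circSry KO, too few for a firm fold, and 9.55% of its 50-base words are shared with Gm40. Its edgeR adjusted p was 0.164. The other 4 were Tex13c1, Tex13c2, Tex13b and Tex16. Their log2 fold changes were 1.35 ± 0.63, 0.24 ± 0.37, -0.26 ± 0.37 and -0.70 ± 0.38 (SE), and the groups of all 4 overlapped. Tex13c1 stood at 20.2 and 29.5 CPM in circSry KO replicates 1 and 2 and at 4.34 CPM in replicate 3, on either side of the WT range of 5.25 to 8.25 CPM.

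The 3 genes of meiosis, bridges and the germ cell surface did not share the upward direction. Tex101 stood at 369, 394 and 277 CPM in WT and at 50.1, 26.1 and 828 CPM in circSry KO. Replicates 1 and 2 of the knockout were far below every WT library and replicate 3 far above. WT averaged 347 ± 61.4 CPM and circSry KO 301 ± 456 CPM (SD, n = 3 each), and the log2 fold change of -0.20 ± 1.07 (SE; edgeR adjusted p = 0.929) was within the spread between replicates. Without circSry KO replicate 3 it was -3.23 (edgeR adjusted p = 0.000361), without replicate 1 it was 0.30 and without replicate 2 it was 0.34, so its direction depends on the library left out; DESeq2 gave it no adjusted p. Over the alternatives its adjusted p ranged from 0.000361 to 0.991. Tex30 had the same order over libraries, with circSry KO replicate 3 above and replicates 1 and 2 below the WT range, an order present in 8.56% of all genes tested and in these 2 of the 35.

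A list of genes that act with TEX101 in the maturation of ADAM3 or belong to its gene family held 14 tested genes. At an unadjusted p under 0.05, 4 were higher and 1 lower, against 13.6% and 9.84% of all genes tested. Positive log2 fold changes were found for 11, against 55.3%, and the median was 0.33. Calr3, a testis chaperone of the endoplasmic reticulum, stood at 20.4 ± 5.57 CPM in WT and at 61.8 ± 17.7 CPM in circSry KO (SD, n = 3 each), with a log2 difference of 1.60 ± 0.37 (SE; edgeR adjusted p = 0.0897). Pdilt, a testis relative of protein disulfide isomerase, had 1.13 ± 0.36 (SE; edgeR adjusted p = 0.124). Clgn, the chaperone calmegin and the most abundant of the list, had -0.01 ± 0.29 (SE; edgeR adjusted p = 0.99).

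Tex14 stood at 82.5, 112 and 98.0 CPM in WT and at 63.6, 85.3 and 62.9 CPM in circSry KO. Only circSry KO replicate 2 reached the WT range, and the log2 fold change of -0.47 ± 0.30 (SE) did not pass (edgeR adjusted p = 0.375). In TPM the order was another, at 60.0, 43.4 and 38.7 in WT and 59.7, 29.4 and 122 in circSry KO, and the log2 fold change on log2(TPM + 1) was 0.36. The sign was negative in CPM, also with the length offsets (-0.29), and positive on the TPM scale, where circSry KO replicate 3 was the highest library. Partners of TEX14 at the bridge and in the final cut between daughter cells (8 genes) included 2 lower and 0 higher (unadjusted p under 0.05). The shares of all genes tested were 9.84% and 13.6%. The median log2 fold change of the 8 was -0.47, and 3 had every knockout library below WT, against 14.3% of all genes. Anln, the contractile ring protein anillin, stood at 62.5 ± 17.9 CPM in WT and at 25.3 ± 0.762 CPM in circSry KO (SD, n = 3 each), with a log2 difference of -1.30 ± 0.33 (SE; edgeR adjusted p = 0.0951). Rbm44, an RNA-binding protein of the bridges and the most abundant of the list, stood at 144 ± 13.2 and 85.5 ± 9.82 CPM (SD, n = 3 each; log2 fold change -0.75 ± 0.28, SE; edgeR adjusted p = 0.162).

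Tex15 stood at 76.0, 181 and 152 CPM in WT and at 72.7, 213 and 21.7 CPM in circSry KO. The knockout libraries held both the highest and the lowest of the 6 values, and the log2 fold change was -0.41 ± 0.72 (SE; edgeR adjusted p = 0.759), or 0.01 without circSry KO replicate 3. Of 6 tested genes of the piRNA pathway and DNA methylation, 3 were lower and 1 higher (unadjusted p under 0.05). The shares of all genes tested were 9.84% and 13.6%. The lower ones were Piwil2, Mov10l1 and Tdrd9, and the higher one was Dnmt3l. Spocd1 and Morc1 had log2 fold changes of 0.01 and 0.11. Piwil2, a PIWI protein that carries piRNAs, stood at 226, 548 and 359 CPM in WT and at 61.9, 78.0 and 188 CPM in circSry KO, a log2 fold change of -1.79 ± 0.52 (SE; edgeR adjusted p = 0.109). Dnmt3l, a cofactor of DNA methyltransferases in germ cells, stood at 7.25 ± 0.233 CPM in WT and at 17.9 ± 2.32 CPM in circSry KO (SD, n = 3 each; log2 fold change 1.30 ± 0.33, SE; edgeR adjusted p = 0.0951).

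Of the broadly expressed Tex genes, 0 of 6 reached an unadjusted p under 0.05, where 13.6% of all genes tested were higher and 9.84% lower. Their log2 fold changes lay between -0.62 and 0.25 with a median of 0.12. Tex2, a lipid transfer protein of the endoplasmic reticulum, stood at 406, 482 and 597 CPM in WT and at 473, 883 and 268 CPM in circSry KO (log2 fold change 0.13 ± 0.44, SE; edgeR adjusted p = 0.887). Tex10, a partner of PELP1 in a nuclear complex that acts in ribosome production, stood at 119.7, 113 and 144 CPM in WT and at 156, 157 and 124 CPM in circSry KO (0.22 ± 0.29, SE; edgeR adjusted p = 0.677). The groups of Tex2 and of Tex10 overlapped. Exons of Tex10 overlap those of Invs on the opposite strand, and 3.98% of its 50-base words are shared with Invs. Tex261, a protein of transport from the endoplasmic reticulum, stood at 113, 80.2 and 85.8 CPM in WT and at 83.5, 53.0 and 197 CPM in circSry KO (0.25 ± 0.48, SE; edgeR adjusted p = 0.781). Tex264, a receptor for the autophagy of that organelle, stood at 66.2, 43.7 and 49.9 CPM in WT and at 46.3, 31.5 and 94.1 CPM in circSry KO (0.11 ± 0.44, SE; edgeR adjusted p = 0.907). Tex30 stood at 113, 138 and 110.0 CPM in WT and at 71.6, 51.7 and 189 CPM in circSry KO (-0.21 ± 0.48, SE; edgeR adjusted p = 0.819). In Tex261, Tex264 and Tex30, circSry KO replicate 3 was the highest of the 6 libraries and replicate 2 the lowest, and without replicate 3 the log2 fold changes were -0.49, -0.50 and -1.02, of which that of Tex30 passed (edgeR adjusted p = 0.0215). Tex30 shares 13.5% of its 50-base words with Gm29247, which overlaps its exons.

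Tex9 was the 1 Tex gene with every knockout library below every WT library, at 80.3, 93.9 and 80.3 CPM in WT and at 49.0, 55.0 and 61.7 CPM in circSry KO. The difference was -0.62 ± 0.28 (SE) and did not pass (edgeR adjusted p = 0.23; 0.0527 without circSry KO replicate 3). Tex9 shares 29.6% of its 50-base words with Mns1, a gene on the opposite strand whose exons overlap it, and the libraries do not mark strand, so its reads are uncertain.

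Partners of TEX10 in the complex with PELP1 had a median log2 fold change of -0.47 over 6 genes. At an unadjusted p under 0.05, 0 were higher and 1 was lower, against 13.6% and 9.84% of all genes tested. That gene was Senp3, a protease of the SUMO modifier, at 89.4 ± 7.28 CPM in WT and 46.3 ± 6.53 CPM in circSry KO (SD, n = 3 each; log2 fold change -0.95 ± 0.29, SE; edgeR adjusted p = 0.117). Nol9, a polynucleotide kinase of ribosomal RNA processing, had -0.69 ± 0.32 (SE; edgeR adjusted p = 0.234), and Mdn1, a very large ATPase of ribosome assembly and the most abundant of the list, had -1.04 ± 0.62 (SE; edgeR adjusted p = 0.34). Of 11 genes of endoplasmic reticulum autophagy listed beside Tex264, 3 were higher and 1 lower at an unadjusted p under 0.05. The shares of all genes tested were 13.6% and 9.84%. The lower one was Calcoco1, a receptor for the same process, at 37.1 ± 8.59 CPM in WT and 7.92 ± 2.23 CPM in circSry KO (SD, n = 3 each; log2 fold change -2.22 ± 0.38, SE; edgeR adjusted p = 0.087). Retreg1, a membrane-bending receptor, stood at 77.1 and 66.0 CPM in circSry KO replicates 1 and 2, at 10.6 CPM in replicate 3 and at 11.7 to 13.7 CPM in WT. Gabarap, an adaptor of autophagy membranes and the most abundant of the list, had a log2 fold change of 0.59 ± 0.41 (SE; edgeR adjusted p = 0.408). Of 9 tested genes for other proteins of the sperm microtubule lumen, all 9 had positive log2 fold changes, against 55.3% of all genes, with a median of 0.76. At an unadjusted p under 0.05, 3 of them were higher, against 13.6%. Spaca9 stood at 49.0 ± 14.2 CPM in WT and at 191 ± 53.5 CPM in circSry KO (SD, n = 3 each; log2 fold change 1.97 ± 0.36, SE; edgeR adjusted p = 0.087), and Dusp21 had 1.55 ± 0.52 (SE; edgeR adjusted p = 0.135). Tekt1, a tektin filament protein, had 0.67 ± 0.40 (SE; edgeR adjusted p = 0.343).

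The Tex genes that stood higher were mostly short ones; lengths and the length classes were examined after the differences had been seen. The length used is the one that the deposited count and FPKM of a gene imply together, which runs below the annotated transcript length. Its median was 1102 bases over the 35 tested Tex genes and 1887 bases over all genes tested. The 21 Tex genes higher at an unadjusted p under 0.05 had a median of 722 bases, from 236 to 1628, and the other 14 a median of 1717 bases, from 663 to 4886. Of the 10 Tex genes under 700 bases and the 10 from 700 to 1300 bases, circSry KO replicate 3 was above the WT range for 10 and 10, and of the 15 longer ones for 4. Its median log2 difference from the WT mean was 1.60, 0.73 and -0.13 in these classes. circSry KO replicate 1 had medians of 1.88, 1.71 and 0.32 and replicate 2 of 1.81, 1.54 and 0.64. Shares and medians of all genes within these same length bounds were not taken. Over all genes tested, circSry KO replicate 3 was above the WT range for 38.5%. Its medians in the shortest and longest of the all-gene length classes were 1.10 and -0.86, so short genes in general stood higher there. Those medians were 0.57 and -0.44 in replicate 1 and 0.04 and 0.05 in replicate 2. Across the 35 genes, Spearman's rho between implied length and the log2 difference from WT was -0.61, -0.40 and -0.87 in circSry KO replicates 1, 2 and 3. Across all 16829 genes tested it was -0.32, 0.00322 and -0.62. These are correlations across genes within a library, which share its depth and its RNA, and no p is given. With the length offsets the median log2 fold change of the Tex genes was 0.98, and 17 of 35 were higher and 1 lower at an unadjusted p under 0.05. Over all 16829 genes tested the median was then 0.04, and 2150 were higher and 1464 lower. The part of length in the differences was not otherwise tested.

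**Figure D3:**
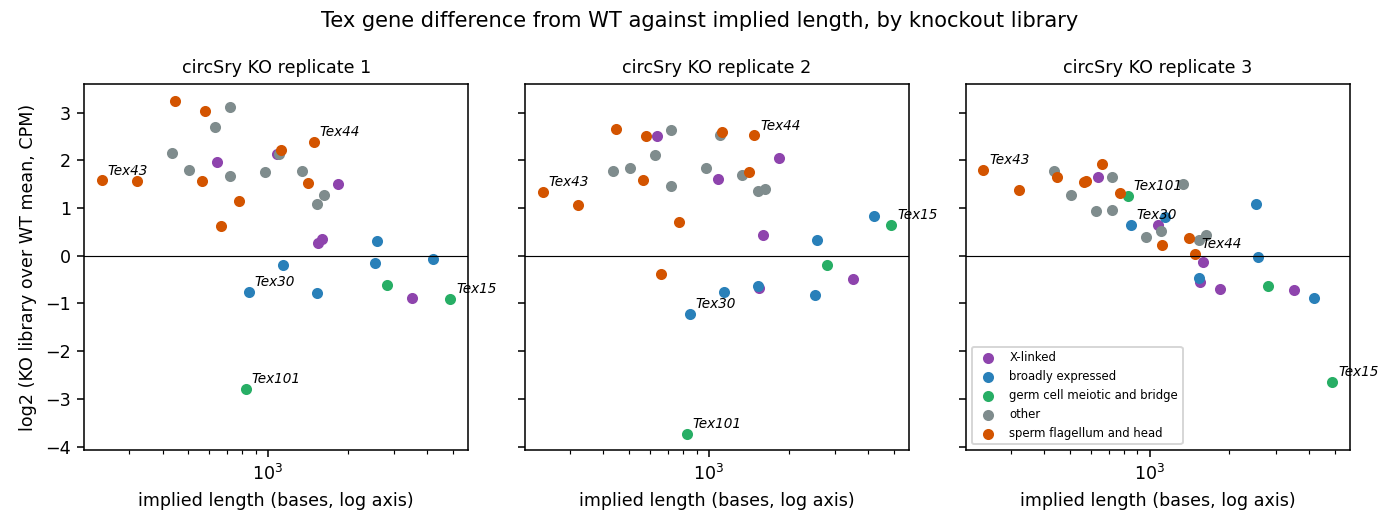
Log2 ratio of each circSry KO library to the WT mean (CPM) against implied length (bases, log axis), 1 panel per knockout library and 1 point per tested Tex gene, coloured by role. The slope is steepest in replicate 3 (rho -0.87), and Tex101 lies at -2.79 and -3.73 in replicates 1 and 2 and at 1.26 in replicate 3.

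For most Tex genes the implied length hardly varied: the largest library value was under 1.2 times the smallest for 26 of the 36. It exceeded 1.5 times for 5, namely Tex14, Tex15, Tex9, Tex16 and Tex29, or 13.9% where all tested genes had 30.7%. In RSEM output this is an effective length, averaged over a gene's transcripts by their estimated share, so it depends in part on which annotated transcripts took the reads. It runs below the full length: for Tex46, with 1 transcript of 683 bases, it was 424 to 459 bases. The WT values of Tex46 were 424 to 445 bases and its knockout values 448 to 459 bases. A small shift between libraries can therefore appear in a gene with 1 transcript. Tex14 stood at 1771, 4280 and 3833 bases in WT and at 1247, 4407 and 394 bases in circSry KO. Its 5 annotated transcripts in GENCODE M21 have full lengths from 444 to 4763 bases, so the comparison is rough. The estimate lay toward the long ones in 3 libraries and toward the short ones in circSry KO replicate 3. Tex15 stood at 4499, 5280 and 5273 bases in WT and at 3486, 6359 and 2678 bases in circSry KO, and circSry KO replicate 3 was again the shortest. Tex29 stood at 562, 547 and 545 bases in WT and at 421, 463 and 334 bases in circSry KO. All 3 knockout values were below WT, as for 5.23% of all genes. Tex9 stood at 1777, 1504 and 1570 bases in WT and at 866, 1155 and 1708 bases in circSry KO, where only replicates 1 and 2 were shorter. Counts of single transcripts were not used here.

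**Figure D4:**
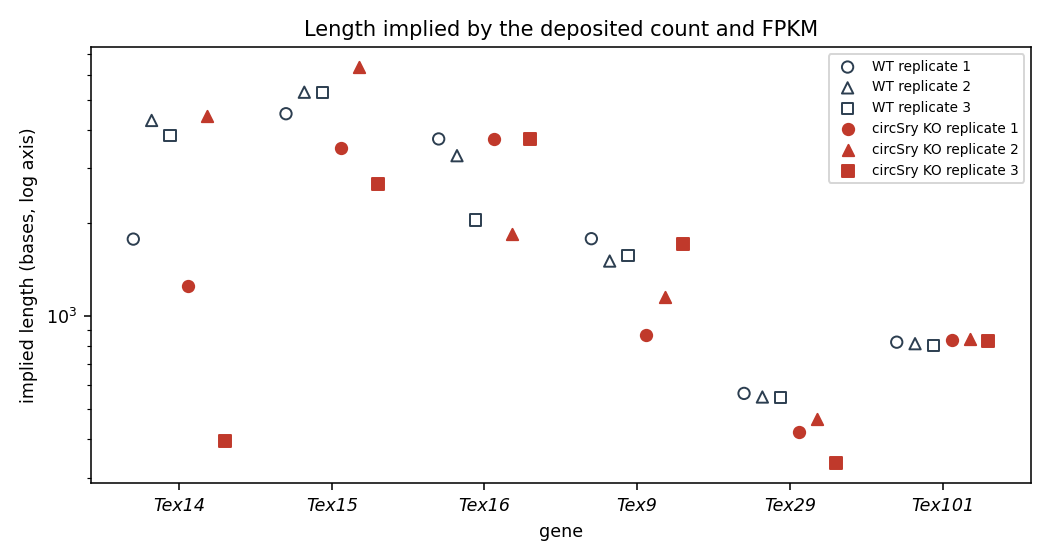
Length implied by the deposited count and FPKM (bases, log axis) of the 5 Tex genes that varied most and of Tex101, with open symbols for WT and filled symbols for circSry KO libraries. Tex14 runs from 394 to 4407 bases over the libraries, whereas the 6 values of Tex101 lie between 802 and 846.

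Markers of other cells also differed between the groups, in both directions. Of all genes tested, 13.6% were higher and 9.84% lower at an unadjusted p under 0.05. Summed round spermatid markers (10 genes) were at 751 to 1377 CPM in WT and at 2112 to 2766 CPM in circSry KO, with 9 of 10 higher at an unadjusted p under 0.05. Summed elongating spermatid markers (10 genes) were at 1882 to 3102 CPM in WT and at 6017 to 15591 CPM in circSry KO, with 10 of 10 higher. The Tex genes of the sperm tail and head summed to 255 to 735 CPM in WT and to 835 to 1380 CPM in circSry KO, with no overlap in any of the 3 sums. The order over knockout libraries differed, since elongating spermatid markers were highest in replicate 1 and these Tex genes in replicate 3, where Tex22 alone had 737 CPM. Summed pachytene markers were at 10488 to 12775 CPM in WT and at 8638 to 13301 CPM in circSry KO. Most of that sum in WT came from Ldhc, Ybx2 and Hspa2. Of the 10 genes, 5 had positive and 5 negative log2 fold changes, with a median of 0.08. At an unadjusted p under 0.05, 1 was higher, Pgk2 (log2 fold change 1.22 ± 0.41, SE), and 1 lower, Ybx2 (-0.92 ± 0.30, SE). Without circSry KO replicate 3 edgeR called 2 higher and 3 lower, where 18.5% and 16.2% of all genes were called. Sycp3, of the synaptonemal complex, stood at 191 to 258 CPM in WT and at 94.3, 37.3 and 339 CPM in circSry KO, below the WT range in replicates 1 and 2 and above it in replicate 3, as for Tex101. Piwil1 was below it in all 3. The log2 fold changes of Sycp3 and Piwil1 were -0.54 ± 0.68 and -1.91 ± 0.94 (SE; edgeR adjusted p = 0.664 and 0.256), and without circSry KO replicate 3 they were -1.83 and -4.26. Spermatogonia markers summed to 144 to 189 CPM and to 179 to 238 CPM, with 3 of 8 higher. Sertoli markers (6 tested of 10; Fshr at 0 in WT) summed to 68.1 to 91.8 CPM and to 185 to 332 CPM, with 5 higher. Leydig markers summed to 545 to 820 CPM and to 222 to 583 CPM, with 5 of 6 lower. The 583 CPM were those of circSry KO replicate 3, where Insl3 alone had 524. Macrophage markers summed to 23.0 to 36.3 CPM and to 40.9 to 395 CPM, with 6 of 7 higher. The 40.9 CPM were again those of replicate 3, where Csf1r had 29.3 CPM and Cd74, at 3.19 CPM, was below WT. Every knockout library exceeded every WT library for 3 of the 7, against 14.1% of all genes tested. The part of these cells in the Tex differences was not tested. In bulk samples fewer cells of a type and less RNA per cell cannot be told apart.

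**Figure D5:**
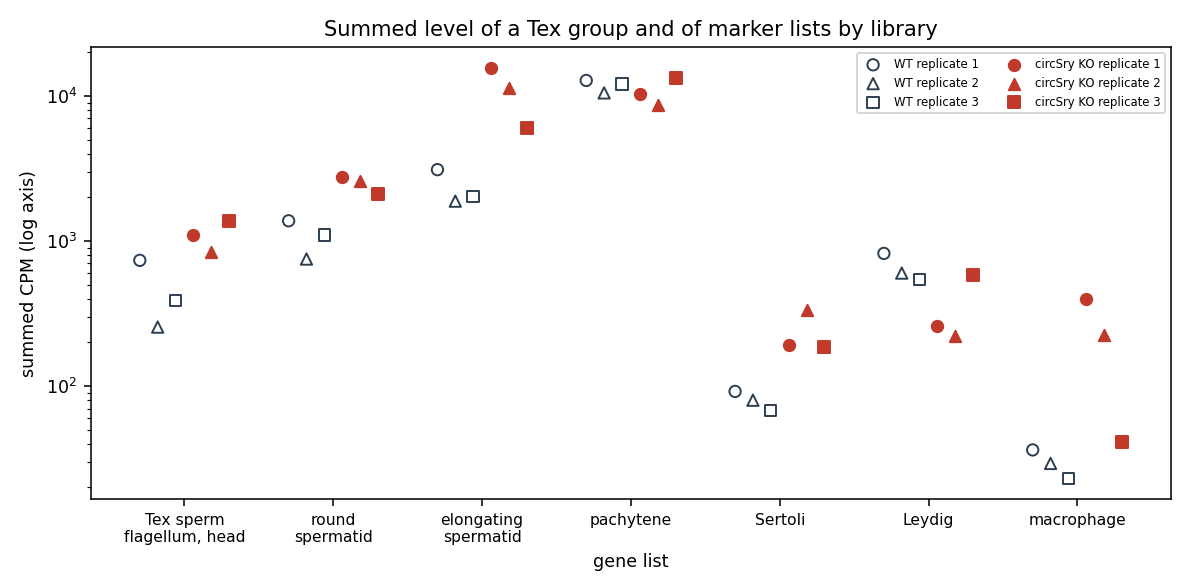
Summed CPM (log axis) of the 10 Tex genes of the sperm tail and head and of 6 marker lists in each library, open symbols for WT and filled symbols for circSry KO. Round and elongating spermatid sums are higher in every knockout library than in every WT library, at 2112 to 2766 against 751 to 1377 CPM and at 6017 to 15591 against 1882 to 3102 CPM.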

How the data were processed

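Libraries were made from total RNA of flow-sorted primary spermatocytes using, as the labels state, a TruSeq RNA kit; its reads carry no strand information. For each gene the authors deposited, per the file headers, 3 values a library: an expected count (an estimated read count as RSEM gives it), a TPM and an FPKM. Tools named in the submitters' processing notes are RSEM 1.3.2, STAR 2.7.0f and edgeR 3.28.1, with builds mm9 and GRCm39; the build and gene models counted on are not stated there. The authors' TPM and FPKM served for levels per length, for an alternative scale, and, with the counts, for the implied length (count over FPKM and library total). Expected counts were rounded to whole numbers.

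The test was the quasi-likelihood F test of edgeR 4.0.16 (R 4.3.3; filterByExpr, TMM, Benjamini-Hochberg over all 16829 genes tested, threshold 0.05); the standard error is the log2 fold change over the square root of F. A ratio of 1 library to the WT mean used log2(CPM + 0.1). Steps were checked on simulated data. Alternatives used DESeq2 1.42.0, limma 3.58.1, other normalizations and filters, TPM scales, length offsets (lowess, span 0.3), a replicate block and each library left out. Exon overlaps, transcript lengths and shared 50-base words came from GENCODE M21 (GRCm38), matched by Ensembl identifier, 36 of 36, and promoters from RefSeq (GRCm38.p6), 28 of 36 matched by symbol. Intervals and floors (3 counts) cover counting error only.

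Members, roles, partner and marker lists, tests and alternatives were chosen with earlier results of these data known. Named were Tex14, Tex15, Tex101, every tested member at an unadjusted p under 0.05, the 6 of highest WT FPKM and the broadly expressed ones, and of each partner list the 2 genes of smallest p and the most abundant; other genes were named, and the printed promoters, implied lengths, length classes and length correlations chosen, after values were seen.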

Additional observations from a re-analysis of the deposited data

How the results depend on the processing

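The count of Tex genes past the adjusted threshold was 0 higher and 0 lower in edgeR with all 6 libraries, and 11 and 0 without a filter on low counts, 16 and 0 with DESeq2, 14 and 0 with DESeq2 given every gene with a count (added after seeing the data; 13 to 16 and 0 over 8 DESeq2 settings), and 0 to 21 higher and 0 to 2 lower when single libraries were left out (21 and 2 without circSry KO replicate 3). Over all genes those counts were 548 and 321 without a filter, 1161 and 782 with DESeq2, 942 and 683 with DESeq2 given every gene with a count, 4 and 2 on log2(TPM + 1), 4 and 3 on log2(TPM + 0.1) and 0 to 3319 higher and 0 to 2909 lower when single libraries were left out. At an unadjusted p under 0.05, 21 Tex genes were higher and 0 lower. The counts were 11 and 2 on log2(TPM + 1) and 10 and 2 on log2(TPM + 0.1). Of all 17772 genes on those scales, 1024 were higher and 2962 lower, and 963 higher and 2939 lower. There was 1 lower Tex gene with DESeq2 and 1 with the length offsets, where 1842 and 1464 of all 16829 genes were lower. Over left-out libraries 15 to 21 Tex genes were higher and 0 to 3 lower. The median log2 fold change of 1.35 was 0.84 and 0.85 on the 2 TPM scales, where that of all genes was -0.25 and -0.34, and 1.13 to 1.67 over left-out libraries. With the replicate block 0 Tex genes passed and the median was 1.25; it changed no call, and the numbers do not pair the libraries (correlations of their deviations 0.04, 0.33 and -0.27). Of the 31 named Tex genes 23 kept their direction in all 17 alternatives. Reversed, with ranges over left-out libraries, were Tex2 (-0.021 with limma-voom, -0.35 and -0.36 on TPM, -0.011 with the block, -0.42 to 0.40), Tex264 (-0.026 with limma-voom, -0.42 and -0.42 on TPM, -0.18 with length offsets, -0.031 with the block, -0.50 to 0.39), Tex261 (-0.13 and -0.13 on TPM, -0.49 to 0.59), Tex10 (-0.17 and -0.18 on TPM), Tex14 (0.36 and 0.36 on TPM), Tex15 (-1.53 to 0.013), Tex30 (-1.02 to 0.11) and Tex101 (-3.23 to 0.34). The cause of these changes was not tested. Depth limits Tex13c3, Tex28 and Tex46, which had 0 to 18 counts in each WT library.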
